A study of Rattus norvegicus with 10 samples.

Results

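Astrocytes, the glial cells that couple into networks, clear glutamate and regulate water and potassium around synapses, were examined through 10 genes in the hippocampus of young rats. The genes were Gjb6, Gja1, Aqp4, Slc1a3, Slc1a2, Gfap, Aldoc, Apoe, Atp1b2 and Glul, and every probe set that the array annotation assigns to exactly 1 of these symbols was taken. This gave 21 of the 31042 probe sets on the array, and each of the 10 genes had at least 1. The C-group was 5 male Wistar rats fed solid chow and the P-group 5 male Wistar rats fed powdered chow for 8 days, and the labels give an age of 4 weeks. Both groups had first taken powdered feed during a short acclimatization, and the labels name no transgene or drug. The comparison addresses whether the mastication of solid feed changes gene expression in the hippocampus, which was dissected manually. The values are log2 expression values that the authors computed with qFARMS, a factor model that joins the probes of a probe set. In dissected tissue, a difference in the number of astrocytes and a difference in the RNA of each astrocyte cannot be told apart.

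Neighboring astrocytes are joined by gap junctions, which Gjb6 and Gja1 form as Cx30 and Cx43. Aqp4 encodes the water channel of the endfeet that astrocytes place on blood vessels. Glutamate released at synapses is taken up by the transporters GLAST and GLT-1, encoded by Slc1a3 and Slc1a2, and is turned into glutamine by glutamine synthetase, the product of Glul. Gfap encodes the intermediate filament protein of astrocytes, Aldoc the glycolytic enzyme aldolase C, Apoe the lipid carrier apolipoprotein E, and Atp1b2 a beta subunit of the sodium and potassium pump.

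The 4 genes that rank products called in favor of the C-group, together with Gfap, are shown first by the 150 bases before their annotated start, so that the genes compared most closely here can be set side by side. The sequences are from RefSeq, build GRCr8, and where a gene has several starts the one farthest upstream is printed. Capitals mark matches on either strand to the AP-1 motif, which is TGANTCA, to the TATA box, which is TATAAA, or to CCAAT. An E-box match (CANNTG) overlaps the AP-1 match of Gja1 by 2 bases. The windows are chr15:35410139-35410288 (minus strand) for Gjb6, chr20:36302414-36302563 (plus strand) for Gja1, chr18:6798843-6798992 (minus strand) for Aqp4, chr2:59557809-59557958 (minus strand) for Slc1a3 and chr10:88361662-88361811 (minus strand) for Gfap.
Gjb6: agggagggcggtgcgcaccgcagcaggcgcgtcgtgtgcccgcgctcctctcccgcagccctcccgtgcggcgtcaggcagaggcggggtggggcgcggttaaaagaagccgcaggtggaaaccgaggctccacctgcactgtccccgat
Gja1: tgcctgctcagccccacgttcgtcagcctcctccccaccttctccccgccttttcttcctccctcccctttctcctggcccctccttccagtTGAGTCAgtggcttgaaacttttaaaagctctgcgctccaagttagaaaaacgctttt
Aqp4: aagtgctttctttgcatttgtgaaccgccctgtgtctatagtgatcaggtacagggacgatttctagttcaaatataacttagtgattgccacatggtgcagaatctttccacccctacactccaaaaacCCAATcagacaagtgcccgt
Slc1a3: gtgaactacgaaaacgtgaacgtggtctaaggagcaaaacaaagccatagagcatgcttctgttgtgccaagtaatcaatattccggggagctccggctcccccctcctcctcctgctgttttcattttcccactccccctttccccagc
Gfap: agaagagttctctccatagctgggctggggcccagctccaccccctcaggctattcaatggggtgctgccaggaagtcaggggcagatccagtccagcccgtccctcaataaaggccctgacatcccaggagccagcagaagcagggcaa

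Windows of this length were found for all 10 genes, with 18 starts. The AP-1 motif occurred in Gja1 only among these 18 windows, 58 bases before the start, and in 3.69% of the 33469 windows of all genes. The CCAAT box occurred in 3 of the 18 windows, those of Aqp4 and of both starts of Glul, against 23.5% of all windows. The TATA box was found in Atp1b2 alone among the 18 and in 8.00% of all windows. No window of the 10 genes held the palindromic NF1 motif (0.0299% of all windows), the STAT motif (TTCNNNGAA, 4.41%) or the SOX motif (AACAAT, 6.24%). The GC box (GGGCGG) was found in 7 of the 18 windows and 26.0% of all, and the E-box (CANNTG) in 9 of the 18 and 46.6% of all. No motif was shared by the 5 printed windows, and those of Slc1a3 and Gfap held none of the 8. A match describes the letters only.

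Only 7 of the 21 probe sets, from 6 genes, varied between rats. These had a standard deviation (SD) above 0.01 log2 units over the 10 rats, and their SDs ran from 0.12 to 0.51. The share was 33.3%, and 9.36% of all probe sets on the array had such an SD. The other 14 probe sets had SDs of 0.000307 or less, and their group means differed by 0.000331 at most. The factor model leaves almost no variation where the probes of a set share none, and so these 14 values carry almost no information on a difference between the diets. Of all 21 probe sets, 19 had a mean above 7.01, the median of the array, and these included all 7 variable ones.

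Aldoc, Apoe, Atp1b2 and Slc1a2 had no variable probe set. Aldoc was at 11.99 in each group, Apoe at 12.77 and 5.55 by its 2 probe sets, Atp1b2 at 11.05 and 7.64, and Slc1a2 at 8.24 and 7.48. In Gja1, Aqp4, Slc1a3 and Glul, the brightest probe set was constant, at 12.27, 11.71, 11.46 and 11.56, and a dimmer probe set of the same gene varied. Gja1 and Slc1a3 each had another constant probe set, at 5.77 (1369639_at) and 7.79 (1371130_at). Aqp4 showed the widest contrast, as 1 of its 3 probe sets spanned 1.63 log2 units over the rats, or 3.10-fold, and the other 2 were constant at 11.71 and 8.12. Gjb6 and Gfap had 1 probe set each, and both varied.

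**Figure D1:**
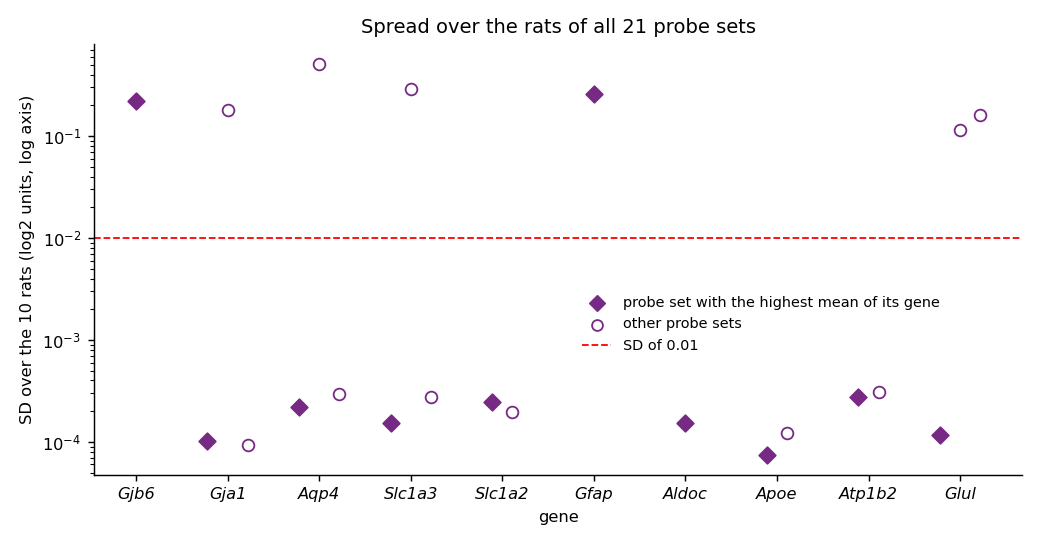
SD over the 10 rats of each of the 21 probe sets of the 10 genes, on a log axis in log2 units, with the red dashed line at 0.01. Filled diamonds mark the brightest probe set of a gene, and the 7 probe sets above the line include the diamond only for Gjb6 and Gfap.

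Among the connexins, Gjb6 lay higher in most rats of the C-group. The values of Gjb6 (probe set 1368577_at) were 9.38, 9.17, 8.83, 9.09 and 9.22 in C1 to C5 and 9.02, 8.99, 9.06, 8.69 and 8.71 in P1 to P5. Of the C-group, 4 rats lay above every rat of the P-group, and C3 lay below 3 of them. The means were 9.14 ± 0.20 (SD, n = 5) and 8.89 ± 0.18 (SD, n = 5), so that the C-group was higher by 0.25 log2 units with a standard error of 0.12, a ratio of 1.19.

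Gja1 (1369640_at) was 9.12, 8.64, 8.69, 8.68 and 8.81 in C1 to C5 and 8.70, 8.50, 8.54, 8.55 and 8.58 in P1 to P5. C1 was the highest rat, and P2 to P5 all lay below the lowest rat of the C-group, whereas P1 lay among the C-group. The group means of 8.79 ± 0.20 (SD, n = 5) and 8.57 ± 0.08 (SD, n = 5) gave a difference of 0.22 (standard error 0.09).

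Aqp4 had the largest spread of these genes, and a rat of each group stood high. Its variable probe set (1368981_at) was 10.04, 9.47, 8.98, 9.04 and 8.63 in C1 to C5 and 9.65, 9.08, 8.82, 8.40 and 8.59 in P1 to P5. C1 was highest, P1 second and P4 lowest, and the groups overlapped over most of their range. The means of 9.23 ± 0.54 (SD, n = 5) and 8.91 ± 0.49 (SD, n = 5) differed by 0.32 with a standard error of 0.32, as large as the difference itself.

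The glutamate transporter gene Slc1a3 ordered the rats much as Aqp4 did. Its variable probe set (1388064_a_at) was 10.64, 10.16, 9.79, 10.02 and 9.93 in C1 to C5 and 10.15, 9.84, 9.85, 9.72 and 9.65 in P1 to P5. C1 was again highest, C2 and P1 followed at nearly the same value, and P5 was lowest. The means were 10.11 ± 0.33 (SD, n = 5) and 9.84 ± 0.19 (SD, n = 5), a difference of 0.27 (standard error 0.16).

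Glul, which acts on the glutamate that these transporters take up, differed less. Its probe set 1367633_at was 10.50, 10.07, 10.12, 10.10 and 10.19 in C1 to C5 and 10.17, 9.97, 10.23, 9.999 and 9.95 in P1 to P5, with a difference of 0.13 (standard error 0.09). Its probe set 1386870_at was 10.94, 10.75, 10.68, 10.70 and 10.87 in C1 to C5 and 10.83, 10.64, 10.85, 10.59 and 10.67 in P1 to P5, with a difference of 0.07 (standard error 0.07). Both probe sets were highest in C1, and C5, P1 and P3 were the next 3 rats in both.

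Gfap was set apart from the other genes by a low value in C1. It was 10.71, 11.42, 11.59, 11.54 and 11.55 in C1 to C5 and 11.51, 11.59, 11.50, 11.47 and 11.51 in P1 to P5. C1 lay 0.81 below the mean of the other 9 rats, which differed among themselves with an SD of 0.05. The means of 11.36 ± 0.37 (SD, n = 5) and 11.51 ± 0.05 (SD, n = 5) gave a difference of -0.15 (standard error 0.16), and without C1 the difference was 0.01. The difference of the group medians was 0.03, and so the sign of the Gfap difference rests on C1.

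**Figure D2:**
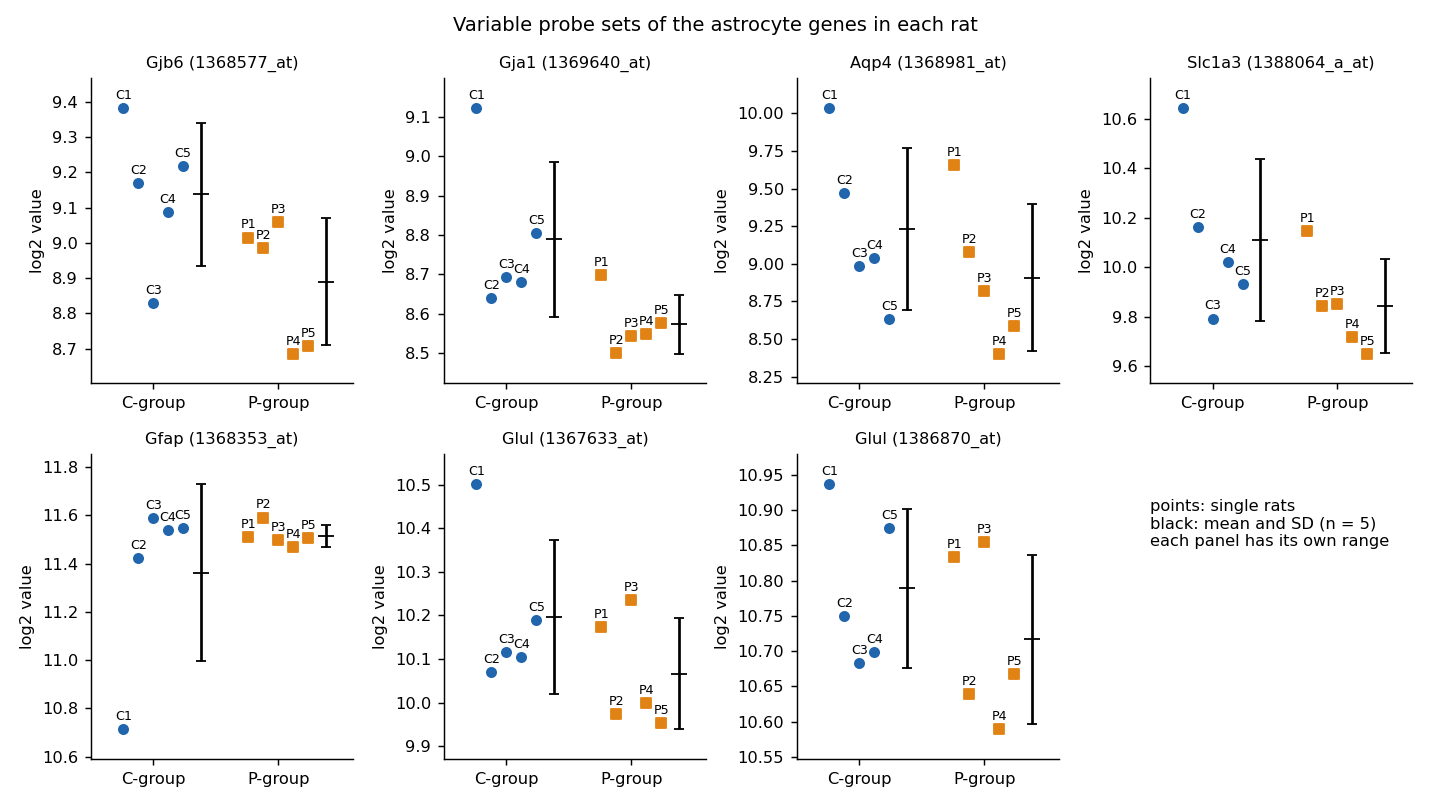
Log2 values of the 7 variable probe sets by rat, with blue circles for the solid feed (C1 to C5) and orange squares for the powdered feed (P1 to P5), each panel with its own range, and black bars for the mean and SD of 5 rats. C1 is the highest rat in 6 panels and the lowest in that of Gfap, and the groups overlap in all 7.

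By rank products, the method of the study, Gjb6, Gja1, Aqp4 and Slc1a3 were called higher in the C-group at a false discovery rate (FDR) under 0.05, each by its variable probe set. The FDR was 0.0129 for Gjb6, 0.0164 for Gja1, 0.00883 for Aqp4 and 0.018 for Slc1a3. This was 4 of 21 probe sets called higher and none lower, and of all probe sets on the array 2.0% were called higher and 0.396% lower. All calls on the array were among the variable probe sets, of which 21.4% were called higher and 4.24% lower. Of the variable probe sets of these genes, 4 of 7 were called higher. The genes were chosen with earlier results of these data known, so an excess over that share is not a result about them. The Glul probe sets had FDRs of 0.105 and 0.116 and were not called, nor was Gfap (FDR 0.547 for lower). Rank products ranks the differences by size within each of the 25 pairs of a C-group and a P-group array and combines the ranks. It does not divide a difference by the spread between rats. When only the 2904 variable probe sets were ranked, 3 probe sets on the array (0.103%) were called higher and none of the 21. The FDR estimate, which can exceed 1, was then 1.04 for Gjb6, 1.05 for Gja1, 0.65 for Aqp4 and 1.004 for Slc1a3. The 4 genes were thus called only where constant probe sets were ranked as well.

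By limma, which weighs a difference against the spread between rats, no gene passed. The adjusted p was 0.927 for each of the 7 variable probe sets, and this was also the lowest value on the array. Without adjustment, 1 of the 7 was under 0.05, that of Gja1 (0.0444 by limma), against 1.14% of the variable probe sets. Of all 21, 3 were under 0.05, against 2.95% of all probe sets. They included 2 constant ones, Apoe 1370862_at (0.0262) and Atp1b2 1379906_at (0.0445), with differences of 0.000101 and 0.000331 log2 units. The labels number the samples 1 to 5 in each group without stating that each is a separate rat, and p-values here measure the spread between these samples. The exact permutation test over the 252 splits of the rats (two-sided, smallest possible p of 0.00794) gave 0.0317 for Gja1, 0.0794 for Gjb6, 0.143 for Slc1a3, 0.222 and 0.357 for Glul, 0.341 for Aqp4 and 0.579 for Gfap, without adjustment for the number of genes. The groups overlapped in all 7 variable probe sets, and on the array 0.207% of the variable ones did not overlap. In the constant Apoe probe set 1370862_at they did not overlap (exact permutation p = 0.00794, unadjusted), at its difference of 0.000101 log2 units. The share of constant probe sets without overlap was not computed, so nothing is concluded from this one. The median difference of the 7 was 0.22 log2 units, and that of all 2904 variable probe sets was 0.07. The C-group mean was the higher in 6 of the 7 and in 68.3% of all variable probe sets.

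The differences depended most on C1. C1 was the highest rat in 6 of the 7 variable probe sets and the lowest in the other, Gfap, and over the array it was highest in 53.5% and lowest in 22.1% of the variable probe sets. Without C1, none of the 4 genes was called (FDR 0.0598 for Gjb6, 0.07 for Gja1, 0.0921 for Aqp4 and 0.107 for Slc1a3), and 0.254% of all probe sets were called higher. The differences without C1 were 0.19 for Gjb6, 0.13 for Gja1, 0.12 for Aqp4, 0.13 for Slc1a3 and 0.05 and 0.03 for Glul. Without C2, Gja1 was called (FDR 0.0431), whereas Gjb6 (0.0527), Aqp4 (0.0524) and Slc1a3 (0.0662) were not, and 0.406% of all probe sets were called higher. The differences without C2 were 0.24 for Gjb6, 0.25 for Gja1, 0.26 for Aqp4 and 0.26 for Slc1a3, against 0.25, 0.22, 0.32 and 0.27 in all rats. Without C5, Gja1 alone lost its call (0.0538) at a difference of 0.21, with 1.44% of all probe sets called higher. With any other rat left out, all 4 genes kept their call. The difference of Aqp4 ranged most, as it was 0.51 without P1 and 0.20 without P4.

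**Figure D3:**
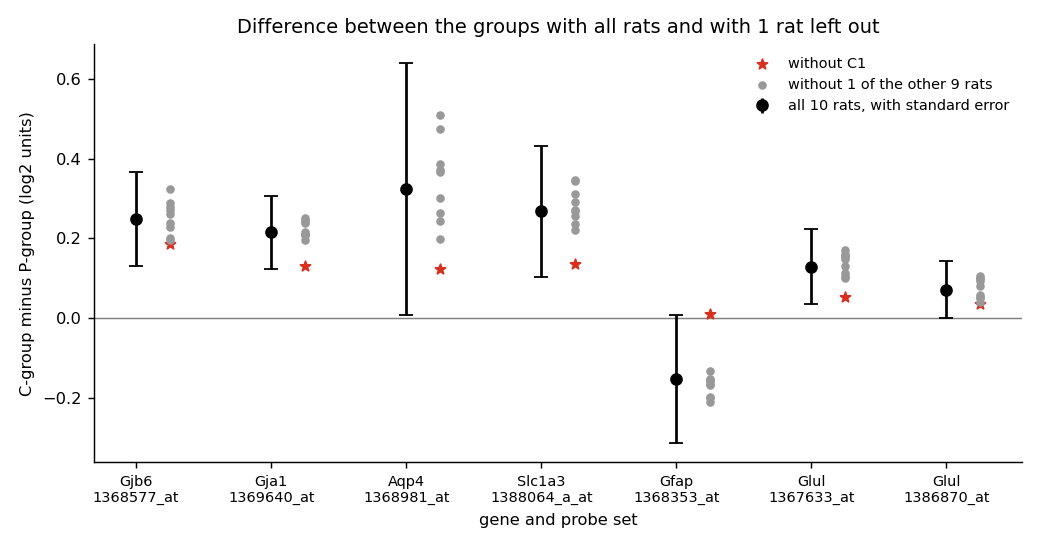
Difference of the group means (C-group minus P-group, log2 units) of the 7 variable probe sets, with the standard error from limma for all 10 rats in black. Grey points leave out 1 rat each and red stars leave out C1, and the star is the lowest point of every gene but Gfap, where it is the only one above 0.

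Over all 10 rats the 5 genes other than Gfap varied together and Gfap went against them. Both relations were weaker without C1, and no pair of genes then passed the permutation test described below. For the most variable probe set of each of the 6 genes, 15 pairs were compared, and 8 passed a permutation test adjusted over the 15 pairs. The strongest relation was that of Aqp4 and Slc1a3 (Pearson's r = 0.91, permutation p = 0.00028, adjusted p = 0.0042, Spearman's rho = 0.83 with p = 0.00458 and adjusted p = 0.0343, n = 10 rats). Gjb6 and Slc1a3 followed in adjusted p (r = 0.84, permutation p = 0.00129, adjusted p = 0.00967, rho = 0.87 with p = 0.00255 and adjusted p = 0.0343), and these were the only 2 pairs that passed by rho. The 2 connexin genes gave r = 0.70 (permutation p = 0.0176, adjusted p = 0.0378) and rho = 0.59 (p = 0.0811, adjusted p = 0.168). Among the 5 genes other than Gfap, r ran from 0.64 to 0.91 and 7 of 10 pairs passed. Gfap had r from -0.83 to -0.57 with the other 5 genes, and 1 of these pairs, that with Slc1a3, passed (r = -0.83, permutation p = 0.0242, adjusted p = 0.0454, rho = -0.38 with p = 0.282 and adjusted p = 0.385). All genes were measured on the same arrays and so share RNA, dissection and normalization. How many pairs of other variable probe sets would pass was not computed. C1 was highest in 53.5% and lowest in 22.1% of all variable probe sets. The count of pairs is therefore not shown to be particular to these genes.

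Leaving out rats separated these relations. Without the 2 rats farthest from the median of the first gene, r was 0.78 for Aqp4 and Slc1a3 (without C1 and P1), 0.73 for Gjb6 and Slc1a3 (without P4 and C1) and 0.39 for the connexins (without P4 and C1). For Slc1a3 and Gfap it was 0.13 (without C1 and C2), so this relation no longer held. It was -0.28 without C1 alone and -0.84 without C2 alone, and so rests on C1. Without C1 alone, no pair passed the exact permutation test after adjustment over the 15 pairs. The lowest adjusted p was then 0.0773, for Aqp4 and Slc1a3 with r = 0.84, and r ran from 0.20 to 0.84 among the 5 genes and from -0.28 to 0.16 for the pairs with Gfap. The number of pairs that passed was 3 without P5. With the group means removed, r ran from 0.53 to 0.90 among the 5 genes and was 0.90 for Aqp4 and Slc1a3. Within the P-group alone, for which no correlation is given over its 5 rats, Aqp4 and Slc1a3 followed each other from P1 at the top to P4 and P5 at the bottom.

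**Figure D4:**
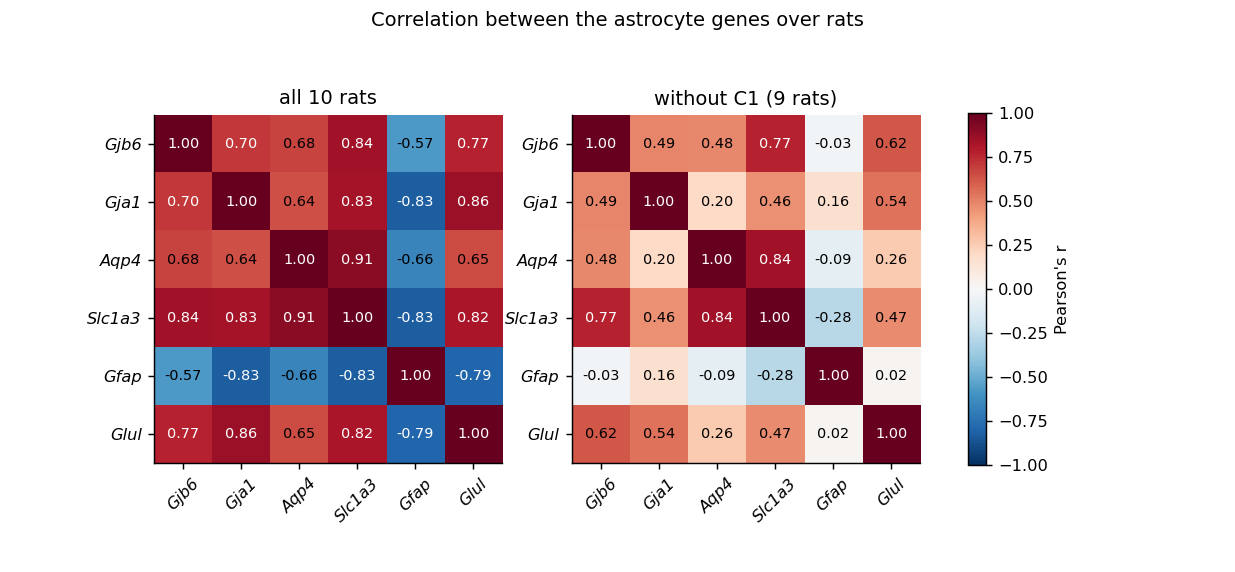
Pearson's r between the most variable probe sets of the 6 genes over all 10 rats (left) and over the 9 rats without C1 (right), from blue at -1 to red at 1. The row of Gfap is blue on the left, where r runs from -0.83 to -0.57, and pale on the right, from -0.28 to 0.16, and the pair of Aqp4 and Slc1a3 stays at 0.84.

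The probe sets outside the 10 genes that followed the mean of the 6 genes most closely were those of Itsn2, Canx, Paqr8, Taok1, Kmt2a and U2surp. The measure was Pearson's r over 10 rats with the mean of the 6 standardized probe sets, and it is given as a description. Gfap entered this mean unreversed, although over all 10 rats it went against the other genes. Itsn2, a scaffold protein of endocytosis, had r = 0.98, and Canx, the chaperone calnexin of the endoplasmic reticulum, r = 0.97. Paqr8 had r = 0.96, and Taok1, a protein kinase, Kmt2a, a histone methyltransferase, and U2surp had r = 0.95 each. C1 was the highest rat in all 6, and without C1 the r values were 0.96, 0.93, 0.91, 0.92, 0.93 and 0.91. Their differences between the groups ran from 0.17 to 0.31 log2 units, and none of these genes is on the lists of astrocyte genes used here.

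Genes of the same pathways and other astrocyte genes were taken from 6 lists, each gene by its most variable probe set, and some of them act in neurons or oligodendrocytes. The array shares set beside these lists and the marker lists below count every variable probe set, so the comparison is only rough. The lists, too, were chosen with earlier results of these data known. Of the 27 variable genes in these lists, 6 were called higher by rank products (22.2%, against 21.4% of all variable probe sets) and 1 lower, and none passed limma. Of these 7 called genes, Synm alone was also called without C1, and it kept its call with any 1 rat left out. Calls of the other variable genes of these lists were not examined with a rat left out. Among the water and potassium genes of the endfeet, 10 were measured, 3 varied and none was called. These 3 were Dtna, of the dystrophin complex that holds Aqp4 in place (0.19, standard error 0.18), the potassium channel gene Kcnj16 (-0.08, standard error 0.24) and the bicarbonate transporter gene Slc4a4 (0.03, standard error 0.22), and each was highest in C1. Of 9 other connexin and pannexin genes measured, 2 varied. Gjb2, which encodes Cx26, was called higher (0.20, standard error 0.15), with its highest value of 8.43 in P3, and Gjb1, the Cx32 of oligodendrocytes, differed by 0.02 (standard error 0.08).

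Of 17 other genes of glutamate and glutamine handling measured, 2 varied. Gad2, which makes the transmitter GABA from glutamate in inhibitory neurons, was called higher (0.21, standard error 0.13), and the vesicular transporter gene Slc17a6 differed by -0.05 (standard error 0.14). Of 10 lipoprotein and cholesterol genes measured, 4 varied. Clu (0.11, standard error 0.10), Apoc1 (0.08, standard error 0.12) and Apod (-0.01, standard error 0.10), all encoding apolipoproteins, were not called. Sorl1, a sorting receptor that binds apolipoprotein E, was called lower (-0.42, standard error 0.40), with 9.27 in C1 and from 11.05 to 11.53 in the other 9 rats, and differed by -0.01 without C1.

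Of 24 other astrocyte markers measured, 13 varied, and 12 of the 13 had the higher mean in the C-group, against 68.3% of all variable probe sets. Their median difference was 0.11 log2 units, against 0.07 for all variable probe sets, and 10 of them were highest in C1, against 53.5% of all variable probe sets. The group means of these 13 genes together differed by 0.097, and by 0.044 without C1. Without C1, the differences of Id4 (-0.0004), Acsbg1 (-0.01), Sparcl1 (-0.03) and Dio2 (-0.05) turned negative, and the others kept their sign. Slco1c1, a thyroid hormone transporter gene, was called higher (0.23, standard error 0.10), and so was Gjb2, whereas the fatty acid ligase gene Acsl6 (0.18, standard error 0.13) and the proteoglycan gene Cspg5 (0.11, standard error 0.08) were not. The other 2 called genes of the list, named here because they were called, were Plpp3 (0.21, standard error 0.17) and Ttyh1 (0.14, standard error 0.11), so that 4 of 13 were called higher against the share of 21.4% on the array. Of 11 intermediate filament and reactive astrocyte genes, 4 varied. Synm, which encodes the filament protein synemin, was called higher (0.30, standard error 0.12, FDR 0.00846), while Vim, which encodes vimentin, differed by 0.16 (standard error 0.09), Lcn2 by 0.08 (standard error 0.07) and Hspb1 by 0.01 (standard error 0.22). With 1 rat left out, the call was lost for Slco1c1 without C1, C2 or C4, for Sorl1 without C1, C2 or any of P1 to P5, for Plpp3 without C1 to C4, P4 or P5, for Gjb2 without any of C1 to C5, P1, P4 or P5, for Gad2 without any of C1 to C5, P2, P4 or P5, and for Ttyh1 without any of C1 to C5, P2, P3 or P4. Without C1, Gjb2 differed by 0.18, close to its difference in all rats, and Slco1c1, Plpp3, Gad2 and Ttyh1 differed by 0.14, 0.12, 0.11 and 0.08.

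Markers of cells beside the astrocytes moved with some rats. Of 14 choroid plexus markers measured, 13 varied, and their mean level ran from 6.63 to 9.19 in the C-group and from 6.47 to 8.73 in the P-group, with C1 highest. All 13 were called higher in the C-group by rank products, against 21.4% of all variable probe sets, and the difference of the group means was 0.68, or 0.38 without C1. C1, C5, P3 and C2 had the highest means of these markers, and P1, second in Aqp4, had the lowest. C1, C5 and C2 were also the highest rats of Gjb6, whereas P3 lay below C4 in that gene. Of 12 meningeal and fibroblast markers, of cells known to express also Gjb2 and Gjb6, 7 varied and 6 were called higher, against the same 21.4%. Their means ran from 7.92 to 8.72 in the C-group and from 7.71 to 8.64 in the P-group, with C1, C5, P3 and C2 again highest. The group means of these markers differed by 0.35, or 0.26 without C1. The 3 variable microglial markers of 8 measured were all highest in C1, with means from 7.87 to 8.48 and from 8.05 to 8.16. Of 10 markers of hippocampal excitatory neurons, 6 varied, with means from 8.89 to 9.27 and from 8.92 to 9.22. Of 8 oligodendrocyte markers, 7 varied, with means from 10.41 to 10.76 and from 10.35 to 10.72. None of the 10 endothelial and pericyte markers varied. The table holds no detection calls, so no marker can be given as absent, and the part of these cells in the results was not tested.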

How the data were processed

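Total RNA of the hippocampus (100 ng per rat) was labeled and hybridized to Affymetrix Rat Genome 230 2.0 arrays. Probe values were summarized by the authors with qFARMS under R 2.7.2, and the deposited table holds log2 values, 1 column for each rat. The scanner files were not used here. The 57 control probe sets were left out. Groups and replicate numbers came from the sample titles, no columns were identical, and there were 0 columns of other samples. The study's methods give 5 rats for this experiment without saying whether per group, and each sample is called a rat here. Arrays give no read depth, and their number limits the precision.

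Probe sets were named from GEO's platform annotation, and the identifiers of all 10 genes were found in the RefSeq table of GRCr8 with the same symbols. Python 3.11.15 with numpy 2.4.6 and pandas 2.3.3 was used for rank products, from the 25 differences between groups with 100 permutations within arrays, with the percentage of false predictions as FDR and a threshold of 0.05 in each direction. The FDR varies slightly with the random draw. limma 3.58.1 in R 4.3.3 (lmFit, eBayes, Benjamini-Hochberg over 31042 probe sets) gave standard errors and adjusted p-values. Correlations used 100000 resamples, or exact enumeration with 9 rats. The scripts were tested on simulated data.

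All probe sets of the 10 genes are reported. From the other lists, up to 4 genes with the smallest limma p are named, and the 6 genes most like the mean. The members and lists were chosen with earlier results of these data known. Alternatives changed the normalization, the filters on dim or invariable probe sets, the FDR estimate, the variance model, the summary of a group, the probe set of a gene, the replicate block and the rats used.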

Additional observations from a re-analysis of the deposited data

Results flagged for a closer look

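C1 stood apart from the other 4 rats of the C-group in 2 of the 7 variable probe sets. Gfap was 10.71 in C1, with a gap to the next rat of 0.813 of the range of the group. Glul (1367633_at) was 10.50 in C1, with a gap of 0.725 of the range. Both exceed Dixon's critical value for 5 rats, and 14 combinations of probe set and group were examined, of which chance would flag about 1 in 20. These combinations share the same rats and are not independent. How often C1 would be flagged over the array was not computed.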

How the results depend on the processing

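Median-centred arrays and quantile normalization left the count of 4 genes called higher by rank products as it was. By limma, 0 probe sets passed under all alternatives run, and in the main fit with all 10 rats 915 of 31042 had an unadjusted p under 0.05. With probe sets above the median level only, rank products called 177 higher and 28 lower in place of 621 and 123, and 4 of the astrocyte probe sets higher. With variable probe sets only it called 3 higher and 0 lower, and 0 astrocyte probe sets. With 1 rat left out, it called 79 to 789 probe sets higher, 7 to 219 lower and 0 to 5 astrocyte probe sets higher. The difference of Gfap was 0.0333 by medians and ran from -0.21 to 0.0109 with 1 rat left out. Of 15 gene pairs, 8 passed, 2 with Spearman's rho and 0 to 10 with 1 rat left out, where r ran from -0.90 to 0.16 for Gja1 and Gfap and from -0.83 to 0.0235 for Gfap and Glul. Whether replicate numbers pair the rats is unclear, as deviations of same-numbered rats correlated at 0.28, -0.01, -0.39, 0.48 and 0.45 over the variable probe sets, and they were not treated as pairs. With the replicate block, 914 probe sets were called higher and 338 lower, 5 of the astrocyte probe sets (Glul 1367633_at with an FDR of 0.0454) were called higher, the standard error of Aqp4 was 0.096 in place of 0.32, 11 gene pairs passed and limma passed 0. The causes of these shifts were not tested.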
